A study of Mus musculus with 8 samples.

Results

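Solute carriers are membrane proteins that move nutrients, ions and metabolites across the cell surface, the mitochondrial inner membrane and the membranes of endosomes, lysosomes and the Golgi. The genes described here are those whose array accession is named Slc followed by a number in RefSeq and whose probe stood clear of background, in the scanner software's own test, on each of the arrays of 1 or more of 4 groups of thymic dendritic cells. The members were thus chosen by measured values, those behind the background test. Of 371 Slc genes on the array, 249 met this rule, and each is represented by its kept probe with the highest mean signal. The 249 are part of 24148 genes or accessions tested. They include 4 genes that are named after a carrier but are not carriers themselves, such as Slc9a3r1, a scaffold protein. These 4 count as carriers in the totals below.

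The study asked how thymic dendritic cells change as they mature, with CD40 and regulatory T cell development named in its title. Dendritic cells were isolated from mouse thymus and sorted on Sirpa, which encodes a receptor with inhibitory function, and on maturation status, and their Cy3-labelled RNA was hybridised to 8 Agilent arrays of 1 colour. The 4 groups, with 2 arrays each, were Sirpa-positive mature, Sirpa-positive immature, Sirpa-negative mature and Sirpa-negative immature cells. The labels give no strain, age, genotype or treatment, name no other sort marker, and do not say whether the arrays of 1 group stand for separate mice or sorts. The p-values therefore reflect the spread among these arrays alone, and that spread may be technical.

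Sirpa marks the dendritic cells of the thymus that are counted as type 2, while most Sirpa-negative ones are type 1 cells that arise within the organ. Both present antigens to developing T cells. Maturation is known to turn a cell that takes up and digests material into one that presents peptides and costimulates, and carriers serve both states: lysosomal carriers export the products of digestion, and surface carriers bring in glucose, amino acids, folate and metal ions.

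Levels are log2 processed signals from which the 75th percentile of the same array was taken away, so that 0 is that percentile; such a level can be compared between arrays for 1 probe but not between probes. Spots above background made up 61.9% to 65.5% of arrays in row 1 of the slide and 52.9% to 57.9% of those in row 2, with 1 array of every group in each row. Arrays are called by the replicate numbers of the labels. The general dendritic cell markers (Flt3, Itgax, Zbtb46 and 4 others) had a mean log2 level of 5.31 to 5.81 on every array. The maturation markers had a mean log2 level of 4.95 and 5.12 in Sirpa-positive mature cells, against 1.76 and 2.00 in Sirpa-positive immature cells. They had 4.97 and 5.33 in Sirpa-negative mature cells, against 0.48 and 1.49 in Sirpa-negative immature cells.

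The choice of members used the background test, so a member that passed through 1 group alone was bound to be dim in the others. Of the 249, 189 were above background on all 8 arrays, 19 passed through 1 group only, 22 through 2 groups and 19 through 3. Slc7a10 was the member on the fewest arrays, with levels of -2.69 and -2.50 in Sirpa-positive mature cells and between -6.67 and -5.11 on the 6 other arrays. Just outside the rule, Slc18a3 was above background on 4 arrays that never made up a group, with levels of -3.94 to -2.78. Of the 122 genes left out, 77 were on 0 arrays above background, and the 122 include Slc16a1 (a lactate and pyruvate carrier), which is not described further.

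Mature and immature Sirpa-positive cells differed in 24 of the 249 carriers at an adjusted p below 0.05: 13 were higher and 11 lower in mature cells. The background for this comparison was 6.89% of all genes called, 4.35% risen and 2.54% fallen. Mature and immature Sirpa-negative cells differed in 58 carriers, 24 higher and 34 lower, where 16.5% of all genes were called, 9.23% risen and 7.24% fallen. Among genes with a symbol the background was 8.99% in Sirpa-positive and 21% in Sirpa-negative cells, close to the carriers' own 9.64% and 23.3%. Among the 189 carriers above background on all arrays, 17 were called in Sirpa-positive cells (6 higher, 11 lower) and 43 in Sirpa-negative cells (11 higher, 32 lower), where 6.34% and 16.1% of all genes above background on all arrays were called. The risen and fallen shares of those genes were not computed, so these splits have no background beside them. Arrays of the groups did not overlap for 151 carriers in Sirpa-positive cells, where 51.1% of all genes did not overlap, and for 152 in Sirpa-negative cells, where the share was 57.1%. Normexp background correction with quantile normalization turned the Sirpa-positive split to 15 higher and 22 lower.

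The maturation comparisons of the subsets share no array. Of the 249 carriers, 8 rose in both subsets, 11 fell in both, and 0 were called in opposite directions. Each of the 11 that fell in Sirpa-positive cells also fell in Sirpa-negative cells. Across the 249 genes the log2 differences had a Pearson correlation of 0.699 and a Spearman correlation of 0.636, and 177 had the same sign. Genes are not independent replicates. The counts in both subsets and the correlations were not computed over all genes tested, so they are not shown to be particular to carriers. With 1 array left out, the number that rose in both lay between 3 (without Sirpa-positive immature array 3) and 9, and the number that fell in both lay between 1 (without Sirpa-negative immature array 7, or either Sirpa-positive immature array, or Sirpa-positive mature array 6) and 6. With the slide row as a block the counts were 7 and 3.

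**Figure D1:**
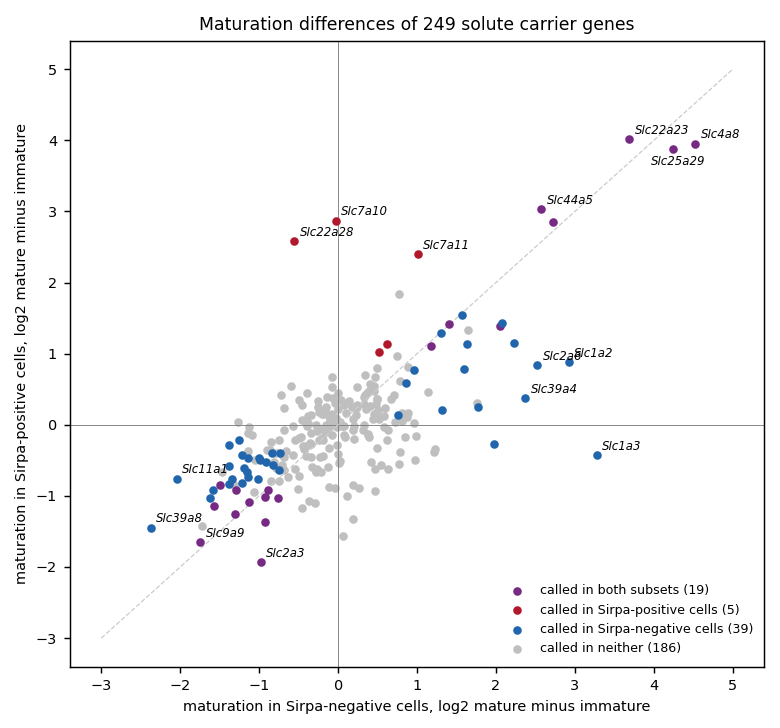
Log2 difference between mature and immature cells in Sirpa-positive cells (vertical axis) against that in Sirpa-negative cells (horizontal axis) for 249 solute carrier genes, each difference from 2 arrays against 2; colours mark the comparisons in which a gene was called and the dashed line is equality. Slc4a8, Slc25a29 and Slc22a23 lie apart at the upper right, and Slc7a10, Slc7a11 and Slc22a28 are high on the vertical axis only.

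Slc4a8, which encodes a sodium-driven exchanger of chloride for bicarbonate, had log2 levels of 0.90 and 1.15 in Sirpa-positive mature cells, against -2.55 and -3.30 in Sirpa-positive immature cells. It had 1.48 and 1.53 in Sirpa-negative mature cells, against -2.39 and -3.65 in Sirpa-negative immature cells. All 4 mature arrays were far above all 4 immature ones. The log2 difference was 3.95 ± 0.43 (SE, adjusted p = 0.0038) in Sirpa-positive cells, a 15.5-fold rise, and 4.53 ± 0.43 (adjusted p = 0.0011) in Sirpa-negative cells, a 23.1-fold rise. In RNA of sorted cells in bulk, fewer cells of a type and less RNA per cell cannot be told apart.

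Slc25a29, a mitochondrial carrier known in humans to import basic amino acids, had log2 levels of -0.31 and -0.47 in Sirpa-positive mature cells, against -4.15 and -4.41 in immature ones (1 of 2 arrays above background), and the difference was 3.88 ± 0.303 (SE, adjusted p = 0.0014). In Sirpa-negative cells it had -0.10 and 0.01 in mature cells, against -3.85 and -4.72 in immature cells, where neither array was above background. That makes it at least 14.3-fold higher in mature Sirpa-negative cells (adjusted p = 0.000547). Slc22a23, an organic ion carrier family member without an established substrate, had -0.10 and -0.29 in Sirpa-positive mature cells, against -3.89 and -4.54 in immature cells. Neither of these immature arrays was above background. The 16.2-fold difference (limma, adjusted p = 0.0024) is not a bound, as both dim signals exceeded the lowest signal well above background of their arrays. In Sirpa-negative cells Slc22a23 had 1.01 and -0.06 in mature cells, against -3.24 and -3.20 in immature cells (1 of 2 arrays above background), a log2 difference of 3.69 ± 0.378 (SE, adjusted p = 0.0014). The calls of these 3 genes held in every alternative tried, but their sizes did not. With normexp background correction and quantile normalization the log2 differences in Sirpa-positive and Sirpa-negative cells were 2.43 and 2.88 for Slc4a8, 1.66 and 1.79 for Slc25a29, and 1.69 and 2.06 for Slc22a23. Of 123 called differences of named carriers, the fold was smaller by over 1.5 times for 62 with normexp and for 52 with the authors' values, so folds and bounds hold for the processed signal only.

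The promoters of 3 of the genes that rose in both subsets are shown because these genes moved together: Slc4a8 and the mitochondrial carriers Slc25a10 and Slc25a29. Each runs from 250 bases before to 50 after the RefSeq start (GRCm38.p6), 5′ to 3′ on the strand of the gene. Capitals mark matches on either strand to the NF-kB consensus, named here without its letters, or to GGAA and GAAA with NN between them, the joint site of Ets and interferon regulatory factors.
Slc4a8 (chr15:100761497-100761796, plus strand): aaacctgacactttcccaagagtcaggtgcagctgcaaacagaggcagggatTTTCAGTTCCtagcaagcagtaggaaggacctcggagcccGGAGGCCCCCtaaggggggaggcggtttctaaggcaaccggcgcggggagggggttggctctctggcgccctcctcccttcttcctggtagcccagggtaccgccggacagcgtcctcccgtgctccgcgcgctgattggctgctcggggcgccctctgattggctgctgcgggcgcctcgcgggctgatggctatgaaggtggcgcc
Slc25a10 (chr11:120491587-120491886, plus strand): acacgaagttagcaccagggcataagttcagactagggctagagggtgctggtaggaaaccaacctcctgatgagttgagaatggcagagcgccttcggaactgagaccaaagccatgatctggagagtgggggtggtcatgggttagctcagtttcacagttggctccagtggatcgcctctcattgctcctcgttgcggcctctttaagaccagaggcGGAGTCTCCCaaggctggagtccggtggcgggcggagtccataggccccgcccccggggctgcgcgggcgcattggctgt
Slc25a29 (chr12:108835827-108836126, minus strand): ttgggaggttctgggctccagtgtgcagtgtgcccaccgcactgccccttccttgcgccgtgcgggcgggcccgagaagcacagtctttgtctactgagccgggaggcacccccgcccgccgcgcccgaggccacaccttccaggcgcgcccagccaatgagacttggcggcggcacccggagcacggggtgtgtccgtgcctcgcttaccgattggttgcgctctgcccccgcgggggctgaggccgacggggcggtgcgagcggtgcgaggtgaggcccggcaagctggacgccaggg
In Slc4a8 the match to the joint site starts at -198 and that to the NF-kB consensus at -158. In Slc25a10 the NF-kB match starts at -30, and the Slc25a29 window holds neither. The NF-kB consensus was found in 3 of 9 promoters of the 8 genes that rose in both subsets (Slc4a8, Slc25a10 and Slc44a5), in 3 of 15 promoters of the 5 matched genes that fell in both (Slc29a1 and Slc35c2), in 10.3% of 242 promoters of matched carriers, and in 8.46% of 32851 RefSeq promoters. The joint site was found in 1 of the 9, in 1 of the 15 and in 2.72% of all promoters, and GAAA repeated with NN between, whose letters can overlap with it, in 0 of the 9 and 3.44% of all. A match is a run of letters, not a shown binding site.

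The other 5 carriers that rose in both subsets handle choline, serotonin, magnesium and dicarboxylates. Slc44a1, a choline transporter of the plasma and mitochondrial membranes, had log2 levels of 2.59 and 3.12 in Sirpa-positive mature cells, against 1.34 and 1.59 in immature ones, and of 3.77 and 3.63 in Sirpa-negative mature cells, against 1.75 and 1.55 in immature ones. Its difference was 1.39 ± 0.243 (SE, adjusted p = 0.0192) in Sirpa-positive and 2.05 ± 0.243 (adjusted p = 0.0024) in Sirpa-negative cells. The other kept probes of Slc44a1, tested singly, differed by 1.60 (adjusted p = 0.103) and 0.27 (adjusted p = 0.624) in Sirpa-positive cells, neither called. In Sirpa-negative cells they differed by 3.92 (adjusted p = 0.0028) and 1.22 (adjusted p = 0.0166). Slc41a1, a magnesium transporter, rose by 1.41 ± 0.221 (adjusted p = 0.0132) in Sirpa-positive and by 1.41 ± 0.221 (adjusted p = 0.0069) in Sirpa-negative cells. Slc25a10, the dicarboxylate carrier of mitochondria, rose by 1.11 ± 0.236 (adjusted p = 0.0362) and by 1.18 ± 0.236 (adjusted p = 0.0162).

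Slc44a5, a choline transporter-like protein, and Slc6a4, the serotonin transporter, were dim genes that passed the background test only through Sirpa-positive mature cells, so the choice of members favours finding them high there. Slc44a5 was at least 2.98-fold higher in Sirpa-positive mature cells than in immature ones (adjusted p = 0.0077), with levels of -2.55 and -3.01 against -6.12 and -5.51. Slc6a4 was at least 3.89-fold higher there (adjusted p = 0.0272), with -2.11 and -2.68 against -5.04 and -5.44. In Sirpa-negative mature cells 1 of 2 arrays measured each of them. For Slc25a10, Slc6a4, Slc41a1 and Slc44a1 the Sirpa-positive call was lost on leaving out any 1 of at least 3 of the 4 Sirpa-positive arrays (adjusted p up to 0.201); Slc44a5 lost it without Sirpa-positive immature array 3 (adjusted p = 0.0613). In Sirpa-negative cells Slc25a10 and Slc6a4 lost theirs without immature array 7 or mature array 2 (adjusted p 0.0577 to 0.0799), Slc25a10 also without mature array 8, and Slc41a1 and Slc44a1 kept theirs in every alternative. Normexp ended the calls of Slc44a5 and Slc6a4 in both subsets.

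Of the 11 carriers that fell in both subsets, Slc2a3, a high-affinity glucose transporter, had the largest difference in Sirpa-positive cells. Its log2 levels were -1.82 and -1.54 in Sirpa-positive mature cells, against 0.24 and 0.27 in immature ones, a difference of -1.93 ± 0.206 (SE, adjusted p = 0.0036) that passed in every alternative. In Sirpa-negative cells they were -2.77 and -2.51 in mature cells, against -1.63 and -1.69 in immature cells, a difference of -0.98 ± 0.206 (adjusted p = 0.0196). This second call was lost without either immature Sirpa-negative array or without mature array 2 (adjusted p 0.0723 to 0.0977).

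Slc9a9, a sodium-proton exchanger of endosomes, had log2 levels of -0.38 and -0.44 in Sirpa-positive mature cells, against 1.18 and 1.31 in immature ones, and of 0.05 and 0.43 in Sirpa-negative mature cells, against 2.19 and 1.79 in immature ones. It fell by 1.65 and 1.75 on the log2 scale in the 2 subsets (adjusted p = 0.0092 in Sirpa-positive and 0.0037 in Sirpa-negative cells). Slc19a1, the reduced folate carrier, had -0.01 and -0.01 in Sirpa-positive mature cells, against 0.80 and 0.87 in immature ones, a difference of -0.84. That call was lost with the mean of the kept probes (limma, adjusted p = 0.108) and with the slide row as a block (0.0998). In Sirpa-negative cells Slc19a1 had -1.28 and -1.03 in mature cells, against 0.37 and 0.32 in immature cells, a difference of -1.50 ± 0.192 (SE, adjusted p = 0.0031). The other kept probe of Slc19a1, tested singly, differed by -0.39 (adjusted p = 0.545) in Sirpa-positive cells. It differed by -1.18 (adjusted p = 0.037) in Sirpa-negative cells. The glutamine carriers Slc1a5 and Slc38a1 fell together. Slc1a5 differed by -0.91 ± 0.207 (adjusted p = 0.0451) in Sirpa-positive and by -1.30 ± 0.207 (adjusted p = 0.0074) in Sirpa-negative cells, and Slc38a1 by -1.08 ± 0.205 (adjusted p = 0.025) and -1.13 ± 0.205 (adjusted p = 0.0117).

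The remaining 6 that fell in both were Slc29a1, an equilibrative nucleoside transporter, Slc43a3, a nucleobase carrier in a family of amino acid carriers, Slc48a1, which moves heme out of lysosomes, Slc35c2, a Golgi member of the nucleotide sugar family, Slc37a3 of the sugar phosphate exchanger family, and Slc17a9, which loads ATP into vesicles. Their log2 differences lay between -1.37 (Slc37a3) and -0.92 (Slc43a3) in Sirpa-positive cells and between -1.57 (Slc35c2) and -0.76 (Slc48a1) in Sirpa-negative cells. In Sirpa-positive cells 20 of the 24 calls were lost on leaving out at least 1 array, which left Slc4a8, Slc25a29, Slc22a23 and Slc2a3, and with the row block 12 were kept. Of the 11 falls in Sirpa-negative cells, those of Slc9a9, Slc19a1, Slc1a5 and Slc35c2 held in every alternative.

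**Figure D2:**
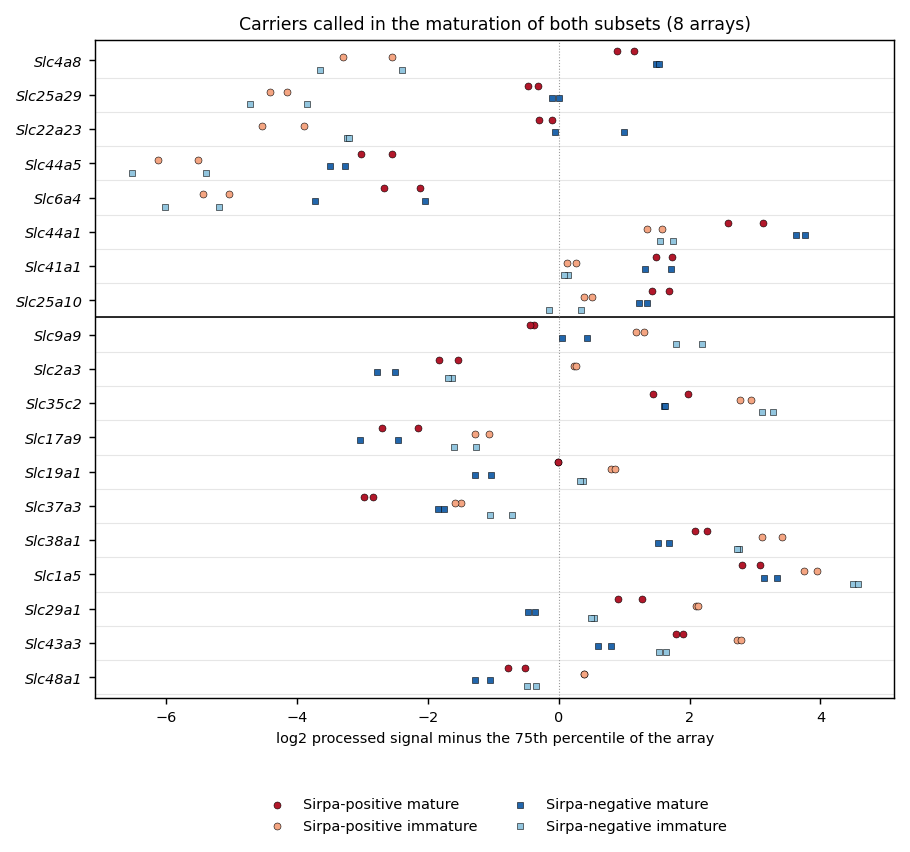
Log2 signal minus the array's 75th percentile for the 8 carriers that rose (above the line) and the 11 that fell (below it) on maturation of both subsets, 1 point per array and 2 arrays per group. In each row the mature points of a subset lie on one side of its immature points; positions in different rows belong to different probes and are not comparable.

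In all, 5 carriers rose in Sirpa-positive cells without a call in Sirpa-negative cells. Slc7a11, the cystine and glutamate exchanger, had log2 levels of -1.17 and -1.83 in Sirpa-positive mature cells, against -3.63 and -4.17 in immature ones, a difference of 2.40 ± 0.499 (SE, adjusted p = 0.034). It had no call in Sirpa-negative cells (adjusted p = 0.231), where none of the 4 arrays was above background. Slc7a10, a carrier of small neutral amino acids, was at least 3.38-fold higher in Sirpa-positive mature cells (adjusted p = 0.0146), the group through which alone it became a member. Slc22a28, of the organic anion carrier family, had -2.50 and -1.83 in mature cells, against -5.19 and -4.30 in immature ones, with 1 of 2 arrays above background (adjusted p = 0.0101). Slc33a1, which carries acetyl-CoA into the endoplasmic reticulum, rose by 1.14 ± 0.237 (adjusted p = 0.0339) and Slc7a6, an exchanger of cationic for neutral amino acids named after its values were seen, by 1.02 ± 0.198 (adjusted p = 0.0273). Slc7a10, Slc7a11, Slc33a1 and Slc7a6 each lost the call without any single 1 of the 4 Sirpa-positive arrays (adjusted p up to 0.192), and Slc22a28 without immature array 3 or mature array 6 (0.0626 and 0.0684).

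Among the 16 carriers that rose in Sirpa-negative cells without a call in Sirpa-positive cells, 3 held in every alternative with differences above 2 on the log2 scale. Slc2a6, a sugar carrier of lysosomes, had log2 levels of 3.49 and 3.36 in Sirpa-negative mature cells, against 1.04 and 0.77 in immature ones, a difference of 2.52 ± 0.201 (SE, adjusted p = 0.000703). Slc1a2, a glutamate transporter best known from astrocytes, had -0.46 and -0.40 in mature cells, against -3.37 and -3.33 in immature ones, a difference of 2.92 ± 0.218 (adjusted p = 0.000584). Slc39a4, a zinc importer, had -1.68 and -1.92 in mature cells, against -3.93 and -4.41 in immature ones, neither above background, and was at least 4.15-fold higher (adjusted p = 0.0012).

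Slc1a3, another glutamate transporter, had log2 levels of -2.45 and -3.39 in Sirpa-negative mature cells, against -5.62 and -6.78 in immature ones, and was at least 1.95-fold higher (adjusted p = 0.0271). That call was lost without immature array 7 or either mature array, with log2 differences of 2.70 to 3.75. In limma fits of all 8 arrays, normexp ended the call too (adjusted p = 0.302). So did the authors' values (adjusted p = 0.145) and the inclusion of dim probes (adjusted p = 0.0884). Slc49a4, a lysosomal carrier, rose by 1.32 ± 0.198 (SE, adjusted p = 0.0058), a call held in every alternative. Slc25a35, a mitochondrial carrier without an established substrate, rose by 2.23 ± 0.472 (adjusted p = 0.0201), lost without immature array 7 or mature array 2 (0.0914 and 0.0854). Slc2a4, the insulin-regulated glucose transporter, was at least 3.40-fold higher (adjusted p = 0.0425), a call lost on leaving out any 1 of 7 arrays. With 1 array left out its log2 difference lay between 1.23 and 2.92, and the lowest of these is a smaller fold than that bound.

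The falls of Sirpa-negative cells without a call in Sirpa-positive cells numbered 23, among them those of the metal carriers Slc11a1, Slc39a8 and Slc31a2. Slc11a1, which moves iron and manganese out of phagosomes, had log2 levels of -0.29 and -0.42 in Sirpa-negative mature cells, against 1.92 and 1.46 in immature ones, a difference of -2.04 ± 0.276 (SE, adjusted p = 0.0039) that held in every alternative. Slc39a8, an importer of zinc and manganese, was not above background on either mature array (-5.00 and -4.78) and had -2.81 and -2.22 in immature cells, so it was at least 2.54-fold lower in mature cells (adjusted p = 0.0097); the call was lost without mature array 2 (adjusted p = 0.0603). Slc31a2, a copper transporter of endosomes, differed by -1.35 ± 0.199 (adjusted p = 0.0054), also in every alternative. Of 29 metal and heme carriers 7 fell and 3 rose in Sirpa-negative cells, with a median log2 difference of -0.15 over the class, against -0.01 over all genes tested, of which 7.24% fell and 9.23% rose. Falls in this class numbered 2 without Sirpa-negative mature array 2, 4 without any other 1 of the Sirpa-negative arrays, and 5 to 7 without 1 Sirpa-positive array.

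Of 27 nucleoside, nucleotide sugar and acetyl-CoA carriers 6 fell and 0 rose in Sirpa-negative cells, with a class median of -0.27, where 7.24% of all genes fell and 9.23% rose. Slc35c1, which brings GDP-fucose into the Golgi, had log2 levels of 1.02 and 1.37 in Sirpa-negative mature cells, against 2.42 and 2.40 in immature ones, a difference of -1.22 ± 0.22 (SE, adjusted p = 0.0116). Its call was lost without either immature Sirpa-negative array or without mature array 2 (adjusted p 0.0512 to 0.0639). Each of these 3 omissions also left 1 fall in the class, and the other 5 omissions left 5 or 6. Slc25a12, the aspartate and glutamate carrier of mitochondria, differed by -1.38 ± 0.199 (adjusted p = 0.005), Slc12a9 of the cation-chloride cotransporter family by -1.59 ± 0.238 (adjusted p = 0.0058) and Slc10a7 of the bile acid carrier family by -1.16 ± 0.184 (adjusted p = 0.0073), and these 3 held in every alternative.

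T cell markers also moved with maturation. Their mean log2 level over 16 genes was -0.09 and -0.04 in Sirpa-positive mature cells, against -0.80 and -0.72 in immature ones, and 0.19 and 0.27 in Sirpa-negative mature cells, against -1.12 and -0.94 in immature ones. Of the 16, 4 rose in Sirpa-positive cells, and 10 rose and 1 fell in Sirpa-negative cells. Of 4 thymic epithelial markers above background, Aire rose and Epcam fell in Sirpa-positive cells, and Aire and Krt5 rose in Sirpa-negative cells. The mean log2 level of the 4 was -0.26 and -0.24 in Sirpa-positive mature cells, against -0.73 and -0.44 in immature ones, and -0.27 and -0.14 in Sirpa-negative mature cells, against -1.77 and -1.68 in immature ones. Krt8 and Psmb11 were above background on both arrays of 0 groups. The part of either marker list in the carriers' differences was not tested.

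Whether the subsets differ in how a carrier changes on maturation was tested as the difference between the maturation effects, and 0 of 249 carriers passed (limma, with 0% of all genes called and 25 carriers at an unadjusted p below 0.05, which is 10.04%, against 8.06% of all genes). The 4 with the smallest p were Slc1a2, Slc39a4, Slc22a28 and Slc2a6, with adjusted p values of 0.0869, 0.0937, 0.0963 and 0.0963. The Sirpa-positive effect minus the Sirpa-negative effect was -2.04 ± 0.308 (SE) for Slc1a2, 3.14 ± 0.529 for Slc22a28 and -1.68 ± 0.284 for Slc2a6. For Slc39a4 neither Sirpa-negative immature array was above background, so no size is given. Slc2a6 was high in 3 groups, with log2 levels of 3.45 and 3.60 in Sirpa-positive mature and 2.65 and 2.72 in Sirpa-positive immature cells, beside the Sirpa-negative values above. Slc39a4 had 0.13 and 0.17 in Sirpa-positive mature cells, against -0.14 and -0.30 in immature ones. Slc22a28 had -2.88 and -3.46 in Sirpa-negative mature cells, against -2.59 and -2.64 in immature ones. Slc2a6 passed with normexp (adjusted p = 0.0206), with the authors' values (0.0393), with probes above background on all 8 arrays (0.0407) and with trended and robust variances (0.012); with the last of these Slc1a2 (0.0152) and Slc39a4 (0.0445) passed as well.

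**Figure D3:**
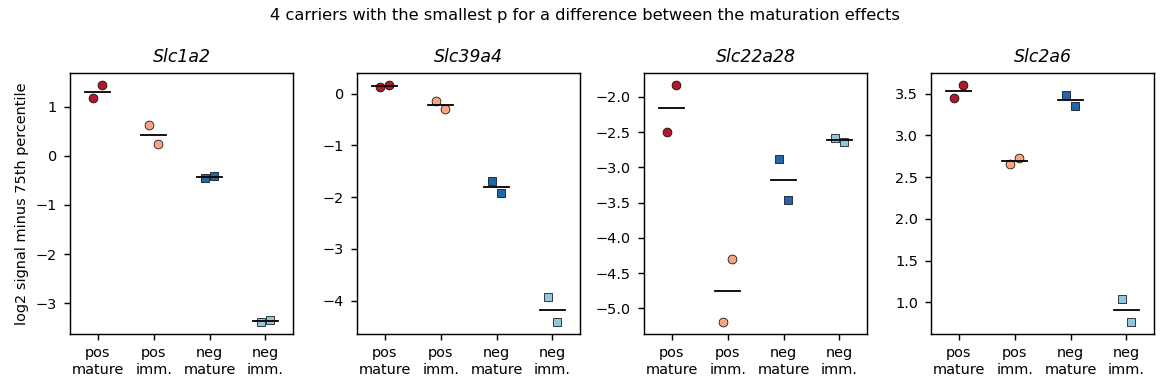
Log2 signal minus the array's 75th percentile on each of 8 arrays (points) with the group mean (bar) for the 4 carriers with the smallest p for a difference between the maturation effects; pos and neg are Sirpa-positive and Sirpa-negative cells, imm. is immature. Slc1a2, Slc39a4 and Slc2a6 are lowest in Sirpa-negative immature cells, and Slc22a28 is lowest in Sirpa-positive immature cells.

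Between the subsets, more carriers were higher in Sirpa-positive cells than were lower. Among immature cells 55 of 249 carriers were called, 43 higher and 12 lower in Sirpa-positive cells, where 11.6% of all genes were called, 7.23% higher and 4.39% lower. Among mature cells 31 were called, 27 higher and 4 lower, where 5.47% of all genes were called, 3.38% higher and 2.1% lower. With carriers above background on all 8 arrays the counts were 25 higher and 10 lower among immature cells and 14 higher and 3 lower among mature cells, where 9.85% and 4.27% of all such genes were called. The higher and lower shares of such genes were not computed. Among genes with a symbol 15% were called in immature and 7.48% in mature cells. Arrays of the groups did not overlap for 156 carriers among immature cells (59.3% of all genes) and for 125 among mature cells (40.8%). These comparisons share no array with each other: 23 carriers were higher in Sirpa-positive cells in both states, 2 lower in both and 0 opposite, and leaving out 1 array gave 12 to 19 higher in both. The Pearson correlation of the log2 differences over the 249 genes was 0.819 and the Spearman correlation 0.696. Neither these correlations nor the counts in both states were computed over all genes tested, so they are not shown to be particular to carriers.

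Amino acid and peptide carriers gave more of these calls than any other class. Of 43, 16 were higher and 1 lower in Sirpa-positive immature cells, and 13 were higher and 0 lower in Sirpa-positive mature cells; their median log2 differences were 0.62 and 0.56, against -0.11 and -0.07 over all genes tested, of which 7.23% and 3.38% were higher. Leaving out 1 array gave 8 to 17 higher among immature cells, with 8 without either Sirpa-positive immature array and 9 without Sirpa-negative immature array 7. Among mature cells it gave 6 to 11, with 6 or 7 without any 1 of the 4 mature arrays. Classes follow gene families, so the nucleobase carrier Slc43a3 counts in this class, and Slc16a10, an aromatic amino acid carrier, counts with the monocarboxylate carriers.

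Slc15a3, which exports peptides and histidine from lysosomes, had log2 levels of 3.62 and 3.63 in Sirpa-positive immature cells, against 0.46 and 0.40 in Sirpa-negative immature cells, a difference of 3.20 ± 0.196 (SE, adjusted p = 0.000107). In mature cells it had 3.01 and 3.01 in Sirpa-positive cells, against 0.74 and 1.05 in Sirpa-negative cells, a difference of 2.11 ± 0.196 (adjusted p = 0.0012). Its relative Slc15a4, needed for signalling of endosomal Toll-like receptors, was above background on every array and differed by 1.04 ± 0.239 (adjusted p = 0.0325) among immature cells and by 0.65 ± 0.239 (adjusted p = 0.218) among mature cells. The Slc15a4 call was lost without any 1 of the 4 immature arrays (adjusted p 0.102 to 0.171).

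The cationic amino acid carrier Slc7a2, which imports arginine, had log2 levels of 0.55 and 0.04 in Sirpa-positive immature cells, against -4.29 and -6.54 in Sirpa-negative immature cells, where neither array was above background. It was at least 18.1-fold higher there (adjusted p = 0.0015) and at least 13.5-fold higher in mature Sirpa-positive cells (adjusted p = 0.0119). Slc7a4 of the same family was at least 27.6-fold higher among immature cells (adjusted p = 0.004) and at least 14.5-fold higher among mature cells (adjusted p = 0.0107). Slc7a11 was at least 5.14-fold higher in mature Sirpa-positive cells (adjusted p = 0.0089). Among mature cells Slc7a2 lost its call without any 1 of the 4 arrays (adjusted p 0.0545 to 0.0808), and Slc7a4 and Slc7a11 without Sirpa-negative array 8 or Sirpa-positive array 1 (adjusted p 0.0517 to 0.0771).

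Slc1a2 had log2 levels of 0.62 and 0.23 in Sirpa-positive immature cells, against -3.37 and -3.33 in Sirpa-negative immature cells, a difference of 3.78 ± 0.218 (SE, adjusted p = 8.6e-05). In mature cells it had 1.17 and 1.44 in Sirpa-positive cells, against -0.46 and -0.40 in Sirpa-negative cells, a difference of 1.73 ± 0.218 (adjusted p = 0.0045). Slc1a3 was at least 8.07-fold higher in Sirpa-positive immature cells (adjusted p = 0.0041), with levels of 0.26 and -2.00 on the 2 arrays, while among mature cells its difference was 1.62 ± 0.756 (adjusted p = 0.352). The large neutral amino acid carrier Slc43a2 differed by 3.16 ± 0.414 (adjusted p = 0.0029) among immature and by 3.29 ± 0.414 (adjusted p = 0.0045) among mature cells. Slc36a1, a proton-coupled exporter of amino acids from lysosomes named after its values were seen, differed by 1.70 ± 0.374 (adjusted p = 0.0273) and 2.18 ± 0.374 (adjusted p = 0.0175), and leaving out single arrays ended those calls (adjusted p up to 0.163). The calls of Slc1a2 and Slc43a2 held in every alternative in both states.

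The promoter of Slc1a2 is shown because the gene was higher in Sirpa-positive cells in both states and its window holds that GGAA and GAAA pair, in capitals and read on the other strand; window and build are as above.
Slc1a2 (chr2:102706188-102706487, plus strand): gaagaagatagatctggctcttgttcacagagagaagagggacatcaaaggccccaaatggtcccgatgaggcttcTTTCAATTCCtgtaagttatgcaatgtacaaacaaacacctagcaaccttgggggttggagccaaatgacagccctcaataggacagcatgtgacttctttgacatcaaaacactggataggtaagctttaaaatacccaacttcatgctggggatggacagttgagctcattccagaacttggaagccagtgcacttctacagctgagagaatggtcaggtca
The match starts at -174. The joint site was found in 4 of 22 promoters of the 14 matched genes that were higher in Sirpa-positive cells in both states (Slc1a2, Slc29a1, Slc37a2 and Slc8a1), in 3.72% of 242 promoters of 189 matched carriers, and in 2.72% of all promoters. The NF-kB consensus was found in 2 of the 22.

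Slc13a3, a sodium-coupled importer of dicarboxylates, had log2 levels of 1.94 and 1.85 in Sirpa-positive immature cells, against -4.77 and -6.50 in Sirpa-negative immature cells, and 0.91 and 0.68 in Sirpa-positive mature cells, against -6.19 and -5.67 in Sirpa-negative mature cells. None of the 4 Sirpa-negative arrays was above background, so it was at least 54.8-fold higher among immature cells (adjusted p = 0.000154) and at least 25.2-fold higher among mature cells (adjusted p = 0.000529). Slc16a9, a carrier of carnitine and creatine, was at least 4.04-fold and 2.15-fold higher in the same states (adjusted p = 0.000666 and 0.005). Slc16a10 was at least 3.80-fold and 2.77-fold higher (adjusted p = 0.0013 and 0.0018). Slc16a3, which exports lactate, differed by 1.30 ± 0.21 (SE, adjusted p = 0.0075) and by 1.07 ± 0.21 (adjusted p = 0.0299), with the first call lost without Sirpa-positive immature array 5 (0.0614) and the second on leaving out any 1 of the mature or Sirpa-positive immature arrays (adjusted p up to 0.138).

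Among metal carriers, Slc40a1, the iron exporter ferroportin, had log2 levels of -1.08 and -2.33 in Sirpa-positive immature cells, against -5.48 and -6.56 in Sirpa-negative immature cells, and was at least 4.52-fold higher (adjusted p = 0.0023). It became a member through Sirpa-positive immature cells alone, which favours finding it high there. Among mature cells it had -2.84 and -3.69, with 1 of 2 arrays above background, against -6.21 and -5.70, and was at least 1.51-fold higher (adjusted p = 0.0318), a call lost without any 1 of the 4 mature arrays (adjusted p 0.0749 to 0.153) and with normexp or the authors' values. Slc39a4 was at least 12.4-fold higher in Sirpa-positive immature cells (adjusted p = 8.75e-05) and differed by 1.95 ± 0.231 (SE, adjusted p = 0.0034) among mature cells. Slc41a2, a magnesium transporter, ran the other way among mature cells, at -0.75 and 0.09 in Sirpa-positive cells, against 1.62 and 1.29 in Sirpa-negative cells (adjusted p = 0.0163); leaving out Sirpa-negative array 2 or 8 or Sirpa-positive array 1 ended that call (adjusted p 0.0516 to 0.0867).

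Of 27 nucleoside, nucleotide sugar and acetyl-CoA carriers 3 were higher and 2 lower in Sirpa-positive immature cells, and 2 were higher and 0 lower in Sirpa-positive mature cells. Of 20 sugar carriers 5 were higher and 0 lower in the immature and 2 were higher and 1 lower in the mature state. Of all genes tested, 7.23% were higher and 4.39% lower in Sirpa-positive immature cells, and 3.38% and 2.1% in Sirpa-positive mature cells. Slc29a1 had log2 levels of 2.10 and 2.13 in Sirpa-positive immature cells, against 0.54 and 0.49 in Sirpa-negative immature cells (1.60 ± 0.205, SE, adjusted p = 0.0026), and differed by 1.50 ± 0.205 (adjusted p = 0.0064) among mature cells. Slc29a3, the nucleoside exporter of lysosomes, differed by 1.27 ± 0.201 (adjusted p = 0.0067) and 1.16 ± 0.201 (adjusted p = 0.018). The first of these was lost without Sirpa-positive immature array 3 (0.0689), and the second without Sirpa-negative mature array 2 or 8 or Sirpa-positive mature array 6 (0.0637 to 0.102). Slc37a2 of the sugar phosphate exchanger family, named after its values were seen, differed by 2.23 ± 0.213 (adjusted p = 0.000712) and 2.12 ± 0.213 (adjusted p = 0.0017), in every alternative. The other kept probe of Slc37a2, tested singly, differed by 2.71 (adjusted p = 0.0118) among immature and by 1.96 (adjusted p = 0.0711) among mature cells. Slc2a3 differed by 1.91 ± 0.206 (adjusted p = 0.0012) among immature and by 0.96 ± 0.206 (adjusted p = 0.0425) among mature cells, where leaving out any 1 of the 8 arrays ended the call (0.0703 to 0.189). The sodium-calcium exchanger Slc8a1 differed by 1.01 ± 0.24 (adjusted p = 0.0366) and 1.56 ± 0.24 (adjusted p = 0.0113), and leaving out single arrays, among them either Sirpa-negative mature array, ended each call (adjusted p up to 0.227).

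Few carriers were lower in Sirpa-positive cells. Slc26a4, an exchanger of chloride for iodide and bicarbonate, had log2 levels of -3.42 and -4.11 in Sirpa-positive immature cells, against -0.74 and -1.31 in Sirpa-negative immature cells, a difference of -2.74 ± 0.296 (SE, adjusted p = 0.0012) that held in every alternative. Among mature cells it had -3.24 and -3.39, against -1.41 and -1.43 (adjusted p = 0.0118), a call lost without any 1 of those 4 arrays (0.0519 to 0.0774). Slc22a21, a carnitine carrier, was the other one lower in both states, at -1.25 ± 0.203 (adjusted p = 0.0077) and -1.11 ± 0.203 (adjusted p = 0.0229); the first call was lost without Sirpa-negative immature array 4 or Sirpa-positive immature array 3 (0.0517 and 0.076), and the second without any array other than the immature Sirpa-negative ones (up to 0.106). Slc22a18 differed by -1.86 ± 0.256 (adjusted p = 0.0036) and Slc25a12 by -1.40 ± 0.199 (adjusted p = 0.0042) among immature cells, in every alternative. Among mature cells these differences were -1.10 ± 0.256 (adjusted p = 0.0554) and -0.30 ± 0.199 (adjusted p = 0.571).

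**Figure D4:**
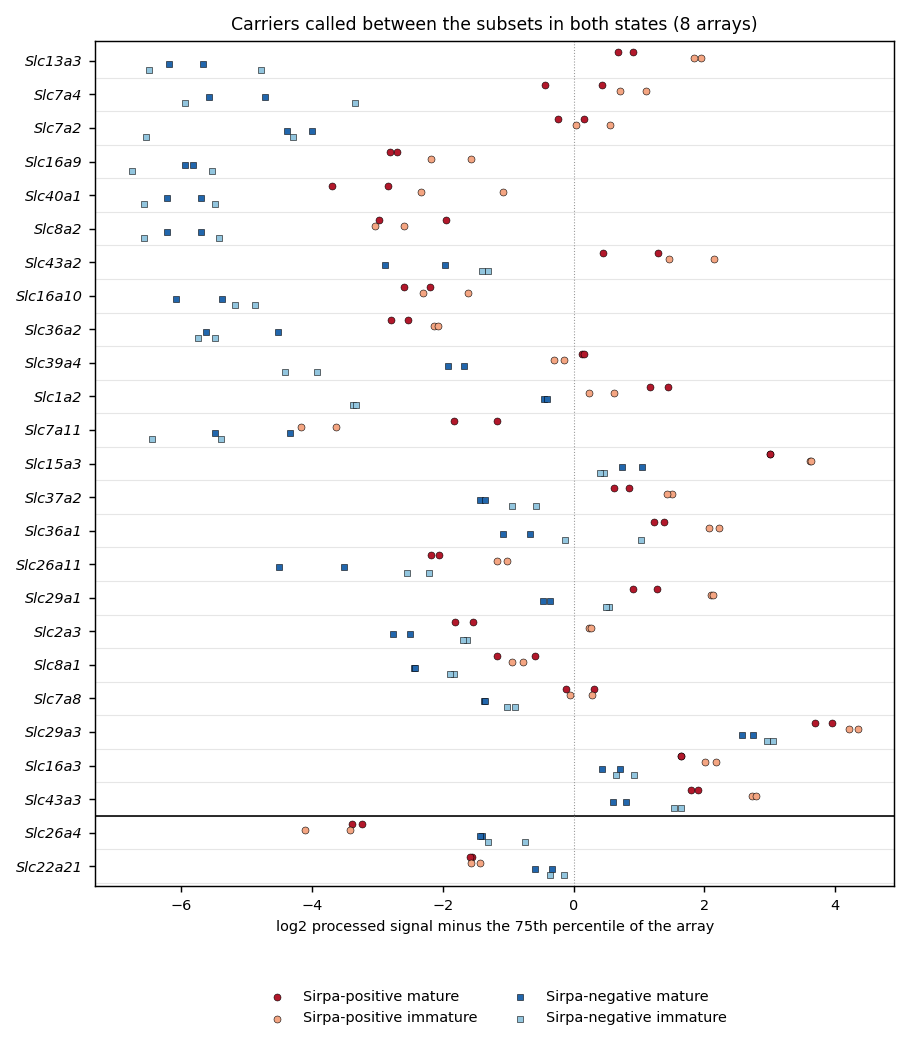
Log2 signal minus the array's 75th percentile for the 23 carriers higher (above the line) and the 2 lower (below it) in Sirpa-positive cells in both states, 1 point per array and 2 arrays per group. Circles (Sirpa-positive) and squares (Sirpa-negative) of the same state do not overlap in any row; positions in different rows belong to different probes and are not comparable.

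Macrophage and monocyte markers were higher in Sirpa-positive cells too, 10 of 10 measured among immature cells and 9 of 10 among mature cells. Their mean log2 level was 4.36 and 4.88 in Sirpa-positive immature cells, against -2.02 and -1.58 in Sirpa-negative immature cells, and 3.79 and 4.16 in Sirpa-positive mature cells, against -1.54 and -1.18 in Sirpa-negative mature cells. C1qc was above background on 0 Sirpa-negative arrays. Of 8 type 2 dendritic cell markers 7 were higher in Sirpa-positive immature cells, and of 5 type 1 markers 5 were lower. Their part in the differences between the subsets was not tested.

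Of 36 mitochondrial carriers of the Slc25 family, 0 were called between the subsets among mature cells, where 5.47% of all genes were, and 1 was higher and 3 lower in Sirpa-positive immature cells, where 11.6% of all genes were called. On maturation 2 rose and 0 fell in Sirpa-positive cells (6.89% of all genes called), and 4 rose and 3 fell in Sirpa-negative cells (16.5%). Slc25a20, the carnitine and acylcarnitine carrier, differed by -1.10 ± 0.232 (SE, adjusted p = 0.0234) in Sirpa-positive immature cells relative to Sirpa-negative ones, lost without any 1 of the 4 immature arrays (0.0636 to 0.182). The adenine nucleotide carriers Slc25a4 and Slc25a5 and the citrate carrier Slc25a1 were called in 0 comparisons. Of 39 inorganic ion carriers, 6 were higher and 2 lower in Sirpa-positive immature cells, and 3 were higher and 1 lower in Sirpa-positive mature cells, against the same 11.6% and 5.47% of all genes.

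**Figure D5:**
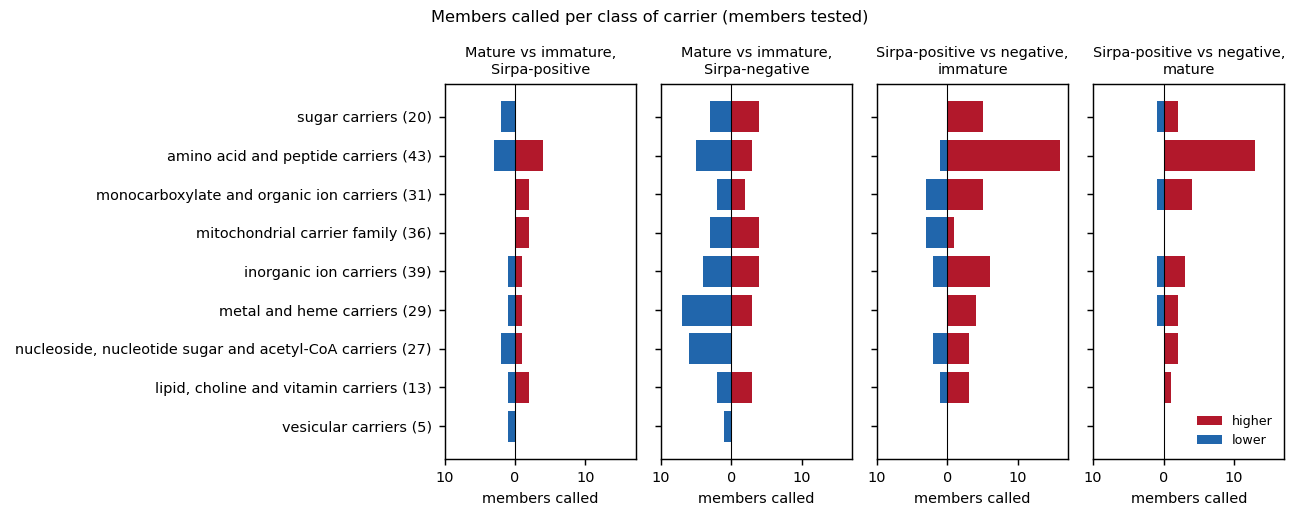
Number of carriers called higher (red, to the right) and lower (blue, to the left) at an adjusted p below 0.05 in each of 4 comparisons, by class of carrier, with the number of members of the class in brackets. Amino acid and peptide carriers show 16 and 13 higher in Sirpa-positive cells among immature and mature cells.

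Of 31 widely studied carriers followed in every comparison, 17 were called at least once and 14 in none. The single comparisons called 6.89%, 16.5%, 11.6% and 5.47% of all genes. The share of all genes called at least once was not computed, so the 17 are not shown to be particular to these carriers. The 14 include Slc2a1, the glucose transporter of most cells, Slc7a5 and Slc3a2, which pair as a carrier of large neutral amino acids, Slc38a2, a glutamine carrier, and Slc20a1, a phosphate carrier. Their log2 differences lay between -1.06 and 0.99 over the 4 comparisons. A p above the threshold does not show that their levels were equal.

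Transport genes outside the Slc names were followed as well, 41 of them above background. On maturation 2 rose and 3 fell in Sirpa-positive cells, and 6 rose and 3 fell in Sirpa-negative cells; between the subsets 10 were higher and 2 lower in Sirpa-positive immature cells, and 5 higher and 1 lower in Sirpa-positive mature cells. Of all genes 6.89%, 16.5%, 11.6% and 5.47% were called in these 4 comparisons. Tfrc, the transferrin receptor, fell by 1.68 on the log2 scale in both subsets (adjusted p = 0.0375 in Sirpa-positive and 0.0211 in Sirpa-negative cells). Atp1b1, a subunit of the sodium-potassium pump, rose by 2.11 and 1.61 (adjusted p = 0.0076 and 0.0105), and Mcu, the calcium channel of mitochondria, by 1.13 and 1.30 (adjusted p = 0.029 and 0.0098). Emb, a partner of lactate carriers, was higher in Sirpa-positive cells by 3.76 among immature and 2.43 among mature cells (adjusted p = 8.75e-05 and 0.0011). Leaving out single arrays was not examined for these genes.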

How the data were processed

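RNA of sorted mouse thymus dendritic cells was measured on 8 Agilent arrays of 1 colour, 2 per group. Per the file headers, the authors' scanner files hold intensities from Feature Extraction 10.7.3.1, background-subtracted as the processed signal; the submitters' processing notes name version 10.5 and limma. The authors also deposited a table of log2 values, whose columns share 1 distribution, as after quantile normalization; it was used as an alternative.

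The main measure was log2 of the processed signal minus the 75th percentile of each array, which was 147 to 313 in intensity. Control and outlier spots were left out, spots of a probe were averaged, and probes were kept by the background test stated above, with the brightest probe for each gene. Names came from RefSeq through the accession. limma 3.58.1 in R 4.3.3 fitted 4 group means (lmFit, eBayes), with Benjamini-Hochberg adjustment over 24148 genes and a threshold of 0.05. The fit had 4 residual and 3.26 prior degrees of freedom, and was tested on simulated data. Groups came from the labels. A bound ("at least") divides the mean of the bright group by the dim group's mean of, per array, the higher of the lowest signal well above background and the probe's own. Bounds allow for dim signal only, not for the spread among arrays. Only 8 arrays limit the precision.

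Carriers named were drawn from the 10 largest rises and falls per comparison and up to 2 of each per class and maturation comparison. A list of 32 carriers with known roles was added. Not every carrier that met these rules is described, and Slc36a2, Slc8a2, Slc16a7 and Slc46a1 are among the called ones left out. Slc7a6, Slc36a1 and Slc37a2 were outside the rules and named after their values were seen. Members and lists were chosen with earlier results of these data known. Alternatives covered background correction, scaling, filters, probe choice, slide row, variance model, arrays fitted and each array left out. Normexp was run on the median signal, as the files hold no mean signal.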

Additional observations from a re-analysis of the deposited data

How the results depend on the processing

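The groups share no replicate numbers, so arrays could be paired by slide row alone, as in the fit with that row as a block. The alternative that names genes by the array's own gene names was not run, as the files used here hold no such column. Of 123 called differences of named carriers, 0 changed sign and 49 passed in every alternative that gave them a value. With the fits that left out 1 array set aside, 60 passed in every alternative, among them the fit of only the arrays compared. The filter for probes above background on all 8 arrays gave a value for 74 of the 123. Other kept probes of called carriers, tested singly, were not among these alternatives. Of 37 such results, 37 had the same sign as the probe used and 21 passed. The number of carriers called on maturation of Sirpa-positive cells was 24, against 37 with normexp, 5 with dim probes kept, 12 when slide row was a block, and 4 to 25 with 1 array left out. On maturation of Sirpa-negative cells it was 58, against 21 with dim probes kept, 27 with only the arrays compared and 23 to 50 with 1 array left out. Between the subsets it was 55 among immature cells, against 30 with dim probes kept and 23 to 57 with 1 array left out, and 31 among mature cells, against 14 with dim probes kept, 18 with only the arrays compared and 14 to 28 with 1 array left out. For the difference between the maturation effects it was 0, against 1 with normexp, 1 with the authors' values, 1 with probes above background on all 8 arrays and 3 with trended and robust variances. Scaling to the array median moved the median of all genes by -0.119 on maturation of Sirpa-negative cells. The 7 differences that had no call and turned sign were those of Slc1a3 on Sirpa-positive maturation (-1.55 to 0.70 with 1 array left out, 1.06 in row 1), Slc24a1 on the same (-0.37 to 0.88 with 1 array left out, -0.33 in row 2), Slc2a6 between mature subsets (-0.039 in row 1), Slc35g1 between mature subsets (0.053 in row 2), Slc7a11 on Sirpa-negative maturation (-0.093 in row 2), Slc7a10 on Sirpa-negative maturation (-0.70 to 0.64 with 1 array left out, 0.35 in row 1) and Slc7a10 between immature subsets (-0.14 to 1.20 with 1 array left out). Unless the alternative itself fits fewer arrays or more probes, the cause was not tested. Dim carriers have bounds or uncertain folds, and 2 arrays per group limit every call.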
